A study of Mus musculus with 18 samples.

Results

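The genes described here encode the proteins of the mitochondrial ribosome. They were chosen by name, as every gene whose symbol in the array's probe annotation began with Mrpl (large subunit) or Mrps (small subunit) followed by a number. This gave 76 of the 19057 genes measured, 48 of the large and 28 of the small subunit. RNA came from C2C12 myotubes, the multinucleate muscle-like cells that form when a mouse myoblast line is held in low serum. All cultures were in medium with 2% horse serum and were given 1 uM of the synthetic glucocorticoid dexamethasone (Dex) or the vehicle, ethanol, at 0.01% of the medium volume, for 6 h or for 24 h. There were 4 ethanol and 4 Dex arrays at 6 h, and 5 ethanol and 5 Dex arrays at 24 h. Triplicates are mentioned in the study's design, but up to 5 numbered samples a group are labelled, and all of them were used. Since no label says that a group's samples came from separate cultures, the p-values reflect the scatter among these samples alone, and that scatter may be technical. C2C12 is a single cell line, and in these bulk cultures fewer cells of a type and less RNA per cell cannot be told apart.

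The mitochondrial ribosome translates the few messages of the mitochondrial genome, which encode core subunits of the respiratory chain and of the ATP synthase. Its RNAs are made inside the organelle, while all of its proteins are encoded in the nucleus, made in the cytosol and imported. The small subunit decodes the message and the large subunit joins the amino acids. Part of the proteins descend from those of the bacterial ribosome, and the rest were added in the line that led to animals. Muscle depends heavily on the complexes that this ribosome supplies, and glucocorticoids are known to change muscle energy metabolism and to cause muscle loss.

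The labelled cell type was checked on marker genes. The myotube markers Myog, Ckm, Acta1, Actc1, Tnnt3, Mylpf and Des lay between the 96.1 and the 99.9 percentile of all genes by mean level. The myoblast markers Pax7 and Myf5, the adipocyte markers Adipoq, Fabp4 and Plin1 and the osteoblast marker Sp7 lay at or below the 36.5 percentile. Alpl, Bglap and Cebpa lay between the 48.4 and the 54.6 percentile, and the osteoblast marker Bglap2 at the 76.4 percentile. With Dex, Myf5 rose by 0.33 and Bglap and Bglap2 fell by 0.26 and 0.41 at 6 h on the log2 scale. At 24 h Ckm, Actc1 and Cebpa rose by 0.30, 0.33 and 0.44, and Myog and Bglap2 fell by 0.32 and 0.35. The part of these changes in the results below was not tested. Array medians were between 99.8 and 100.4 intensity units at 6 h and between 85.2 and 86.8 at 24 h. The 2 times therefore seem to have been scaled separately, and no level is compared between 6 h and 24 h below. At each time the deviations of the arrays from their group means also span fewer directions than that number of arrays allows, with 1 direction missing at 6 h and 3 at 24 h. Counts are therefore given a second time from a fit with these directions as covariates, which lowered the residual degrees of freedom from 14 to 10.

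The mitoribosomal genes were well expressed. Of the 76, 71 lay above the median gene, whose mean intensity was 102.6. The brightest was Mrps24, whose protein is the counterpart of bacterial ribosomal protein S3, at 12745 ± 1388 (SD, n = 4) with ethanol and 13934 ± 1064 with Dex at 6 h. At 24 h it was at 9048 ± 479 (SD, n = 5) and 8883 ± 282. Mrpl33 and Mrpl13 followed, with ethanol means of 9885 and 8666 at 6 h and of 8187 and 7488 at 24 h. Probes of different genes bind with different strength, so this order describes the probes and not the amounts of the messages. The 5 below the median gene were Mrpl45, Mrpl19, Mrps14, Mrpl32 and Mrpl35, with mean intensities over the 18 arrays from 93.4 down to 76.4. The lowest intensity on an array was between 60.4 and 70.8, so these 5 were read close to the floor of the arrays.

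The promoter stretches of 5 genes are shown as examples, picked because the levels of these genes are given below. RefSeq promoters (assembly GRCm38.p6, a window of 300 bases around the start) were matched for 67 of the 76 genes. Each stretch lies before the annotated start, is written 5′ to 3′ on the gene's strand, and has its motif match in capitals. The Mrpl52 stretch is chr14:54426837-54426893 (plus strand) and its capitals, an ETS core read on the other strand, begin 47 bases before the start. The Mrpl39 stretch is chr16:84735335-84735394 (minus strand), with an NRF1 motif 125 bases before the start. The Mrpl57 stretch is chr14:57826157-57826216 (plus strand), with an NRF1 motif read on the other strand 57 bases before the start. The stretches of Mrpl47, chr3:32736756-32736815 (minus strand), and Mrps6, chr16:92058276-92058335 (plus strand), end at the base before the start and hold no match. Matches after the start are not shown, and Mrpl52 and Mrpl57 each have an ETS core there.
Mrpl52: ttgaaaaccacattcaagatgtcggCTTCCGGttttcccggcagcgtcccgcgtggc
Mrpl39: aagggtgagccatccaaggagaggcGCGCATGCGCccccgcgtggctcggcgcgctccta
Mrpl57: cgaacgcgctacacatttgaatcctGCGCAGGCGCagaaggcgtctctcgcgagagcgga
Mrpl47: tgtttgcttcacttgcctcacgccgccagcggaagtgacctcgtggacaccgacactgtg
Mrps6: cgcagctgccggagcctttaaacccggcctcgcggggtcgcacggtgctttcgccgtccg

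The motifs were searched on both strands in the promoters of the 67 matched genes and of all 15207 measured genes with a promoter entry. NRF1 and the ETS factor GABP are known as activators of nuclear genes for mitochondria, and YY1 is a zinc-finger factor found at many housekeeping promoters. The ETS core CCGGAAG was present in 38.8% of the mitoribosomal promoters (26 of 67) against 13.8% of all. The NRF1 motif, GCGC then any base and TGCGC, was present in 19.4% against 7.84%, and the YY1 motif, AAGATGGC then any base and G, in 13.4% against 2.27%. The glucocorticoid response element, searched as AGNACA and TGTNCT with 3 bases between, was in 0 of 67 promoters and in 0.0789% of all, and looser forms were not searched. Median GC content was 58.0% against 57.3%. The ETS core was in 15 of 42 large and 11 of 25 small subunit promoters, and the NRF1 motif in 10 of 42 and 3 of 25. Many of these genes share their start region with a neighbour read in the other direction: 26 of 67 (38.8%) had such a start within 1000 bases, against 15.4% of all genes. One such pair joins both subunits, Mrpl46 and Mrps11, whose starts lie 42 bases apart. A match is a string of letters in a window and says nothing about binding in these cells.

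After 6 h with Dex, the genes called were all lower, and by modest amounts. Mrpl52, Mrpl54, Mrpl39, Mrpl43, Mrpl53 and Mrpl48 of the large subunit and Mrps25, Mrps6 and Mrps18c of the small subunit fell by 0.22 to 0.37 on the log2 scale. These 9 of 76 (11.8%) stand beside 9.06% called among all genes, with 4.67% higher and 4.39% lower. Of the 9528 genes above the median gene, 15.4% were called. The share of mitoribosomal genes called at 6 h was thus near that of genes in general, while 0 of 76 were higher, a direction that 4.67% of all genes took. In the large subunit 6 of 48 fell and in the small subunit 3 of 28. The median log2 fold change was −0.04 over the large subunit, 0.01 over the small subunit and 0.00 over all genes. With 1 array left out the small subunit median at 6 h lay between −0.02 (without ethanol replicate 4 of 6 h) and 0.02 (without Dex replicate 1 of 6 h), on both sides of 0.

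**Figure D1:**
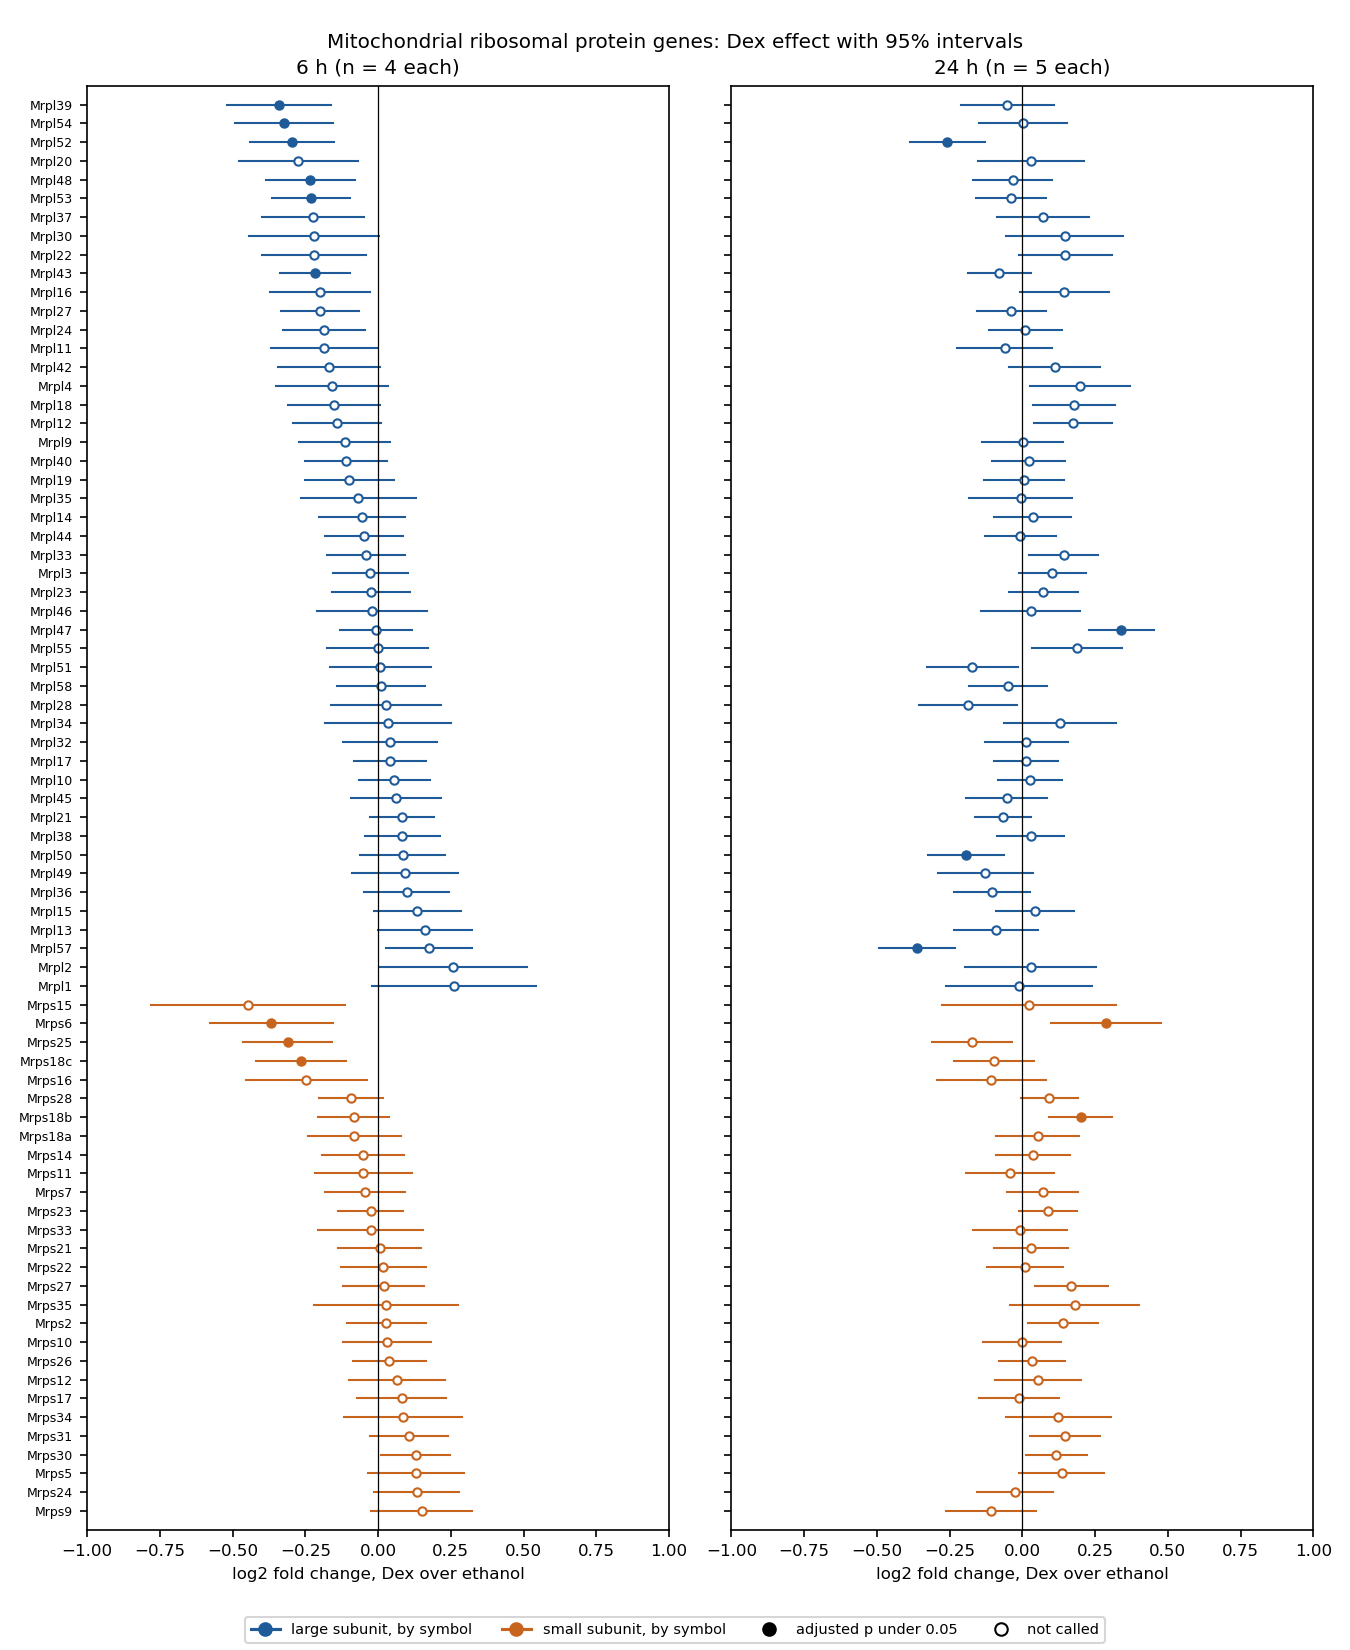
Log2 fold change of Dex over ethanol for each of the 76 genes at 6 h (left, 4 arrays a group) and 24 h (right, 5 arrays a group), with 95% intervals from the model as lines; filled points were called at an adjusted p under 0.05. The 9 filled points at 6 h all lie left of 0, and the 6 at 24 h lie on both sides.

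Mrpl52, a large subunit protein without a bacterial counterpart, had the smallest p of the mitoribosomal genes at 6 h. The ethanol arrays read 6091, 5815, 6448 and 5932, and the Dex arrays read 5043, 4912, 4811 and 4995. Every Dex array lay below every ethanol array. The log2 fold change was −0.30 (SE 0.07, adjusted p 0.00744). At 24 h the ethanol arrays read 2145, 2457, 2671, 2495 and 2220, and the Dex arrays 2229, 1848, 1923, 2104 and 1918. Here the groups overlapped, since 1 Dex array lay above 2 of the ethanol arrays. The change at 24 h was −0.26 (SE 0.06, adjusted p 0.00574). Mrpl52 was the sole gene of the 76 called lower at both times, and with the missing directions as covariates it was still called at both (adjusted p 0.0452 and 0.0336).

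Mrps25, a small subunit protein particular to mitochondria, read 292, 348, 279 and 297 with ethanol and 258, 219, 260.2 and 243 with Dex at 6 h. The groups did not overlap, and the change was −0.31 (SE 0.07, adjusted p 0.00844, or 0.0450 with the covariates). The gene has 4 probes. In a fit over all probes, 2 of them were called lower at 6 h (log2 fold changes −0.31 and −0.27), and the others were at −0.05 and 0.09. With the mean of all its probes the adjusted p was 0.125, and with the 6 h arrays fitted alone it was 0.0525. At 24 h the change was −0.17 (SE 0.07, adjusted p 0.0807), and the second of these probes was again lower, at −0.31 (adjusted p 0.00232 over all probes).

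Mrpl54 and Mrpl39, both large subunit proteins without a bacterial counterpart, fell by 0.33 (SE 0.08, adjusted p 0.0121) and 0.34 (SE 0.09, adjusted p 0.0132) at 6 h. Mrpl39 is a relative of the threonyl-tRNA synthetases. Mrpl54 read 3664, 3568, 4181 and 3357 with ethanol and 2807, 3072, 2614 and 3307 with Dex, so that the groups did not overlap. Mrpl39 read 247, 239, 306 and 299.5 with ethanol and 191, 238, 196 and 236 with Dex, and the groups came within 1 unit of each other without overlapping. At 24 h the changes were 0.00 for Mrpl54 and −0.05 for Mrpl39. Both calls were lost without ethanol replicate 3 or without Dex replicate 3 of the 6 h arrays, and that of Mrpl39 also without ethanol replicate 4 or Dex replicate 1. The adjusted p then lay between 0.0566 and 0.0592 for Mrpl54 and between 0.0527 and 0.0615 for Mrpl39. With the covariates it was 0.0515 and 0.0513.

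Mrpl43, Mrpl53 and Mrps18c were also lower at 6 h, each with groups that did not overlap. Mrps18c is one of 3 relatives of bacterial protein S18 and the one that takes its place in the small subunit. It read 2945, 2956, 3018 and 2897 with ethanol and 2343, 2616, 2316 and 2576 with Dex, a fall of 0.26 (SE 0.07, adjusted p 0.0257). Mrpl43 fell by 0.22 (SE 0.06, adjusted p 0.0202), from 4101 ± 244 to 3527 ± 172 (SD, n = 4). Mrpl53 fell by 0.23 (SE 0.06, adjusted p 0.0243), from 6001 ± 252 to 5130 ± 555 (SD, n = 4). All 3 calls were lost without ethanol replicate 3 or Dex replicate 1 of 6 h. Mrpl43 was also lost without Dex replicate 2, Mrpl53 without ethanol replicate 4 or Dex replicate 3, and Mrps18c without Dex replicate 3. The adjusted p without one of these arrays lay between 0.0552 and 0.0859 for Mrpl43, between 0.0589 and 0.0968 for Mrpl53 and between 0.0671 and 0.0832 for Mrps18c.

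Mrpl48, named because it was the ninth gene called and chosen after its values were seen, was at the edge of the threshold. It read 834, 986, 956 and 989.6 with ethanol and 714, 852, 737 and 909 with Dex at 6 h, so the groups overlapped. The change was −0.23 (SE 0.07, adjusted p 0.0487), and the call was lost in 21 of the 28 alternative settings. Of these, 14 left out a single array, 5 of them arrays of 6 h and 9 arrays of 24 h, with an adjusted p between 0.0519 and 0.162.

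The number of calls at 6 h depended on the arrays and on how the spread was counted. Without Dex replicate 1 of 6 h the count was 3 (3.95%), beside 7.62% of all genes. Without ethanol replicate 3 or without Dex replicate 3 it was 4 (5.26%), beside 6.5% and 7% of all genes. Without Dex replicate 4 it was 12 (15.8%), beside 9.29% of all genes. When the missing directions were covariates, 2 passed, Mrpl52 and Mrps25, both lower, beside 4.46% of all genes (2.48% higher and 1.98% lower). In 11 of the 76 genes the arrays of both groups were apart, 10 lower and 1 higher with Dex, beside 10.9% of all genes (5.59% higher and 5.31% lower). The higher one was Mrps30, whose ethanol arrays lay at or below 4849.5 and whose Dex arrays lay at or above 4965, with a log2 fold change of 0.13 (SE 0.06, adjusted p 0.179).

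After 24 h with Dex the calls went both ways. Mrpl47, Mrps18b and Mrps6 rose by 0.20 to 0.34 on the log2 scale, and Mrpl57, Mrpl52 and Mrpl50 fell by 0.19 to 0.36. These were 6 of 76 genes (7.89%), beside 16.5% called among all genes, 8.39% higher and 8.1% lower, and beside 25.5% of the genes above the median gene. With the 24 h arrays fitted alone 15 were called, 10 of them higher, beside 22% of all genes (11.2% higher), and with array weights 17 were called, 10 of them higher, beside 29.1% (14.7% higher). In the large subunit 1 of 48 rose and 3 fell, and in the small subunit 2 of 28 rose and 0 fell. The median log2 fold change was 0.01 over the large subunit, 0.04 over the small subunit and 0.00 over all genes. For all 76 genes at 24 h, and for 75 of 76 at 6 h, the 95% interval lay within a 1.5-fold change in either direction. With the covariates this held for 76 at 24 h and 74 at 6 h. For the 5 genes below the median gene, signal close to background limits what the intervals can show. In the main fit the exception at 6 h was Mrps15, at −0.45 (SE 0.16, adjusted p 0.0883). Its ethanol arrays ranged from 851 to 1748 and its Dex arrays from 764 to 1101.

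Mrpl47, the counterpart of bacterial protein L29 near the exit of the peptide tunnel, had the smallest p of the mitoribosomal genes at 24 h. Its ethanol arrays read 899.5, 855, 910.1, 864 and 903, and its Dex arrays 1081, 1195, 1085, 1170.2 and 1084. All Dex arrays lay above all ethanol arrays, and the change was 0.34 (SE 0.05, adjusted p 7.98e-05). At 6 h the ethanol arrays lay between 929.9 and 1093 and the Dex arrays between 936 and 1039.6, a change of −0.01. The brightest of the 4 probes carried this result alone: the other 3, with mean log2 levels from 6.29 to 7.08, changed by 0.04 to 0.07. With the mean of all probes the change at 24 h was 0.12 and was still called. The start of Mrpl47 lies 308 bases from that of Ndufb5, a complex I subunit read in the other direction. Ndufb5 fell by 0.31 (SE 0.07, adjusted p 0.00407) at 6 h and was at 0.13 (adjusted p 0.150) at 24 h.

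Mrpl57, a large subunit protein particular to mitochondria, moved the other way at 24 h. The ethanol arrays read 148, 140.1, 146, 162 and 147, and the Dex arrays 114, 123, 118, 112.5 and 111. The groups did not overlap, and the fall was 0.36 (SE 0.06, adjusted p 0.000279, or 0.00305 with the covariates). At 6 h the ethanol arrays read 148, 153.5, 130.4 and 143 and the Dex arrays 156, 190.2, 150.5 and 155, and the change was 0.17 (SE 0.07, adjusted p 0.139). Mrpl57 was the dimmest of the genes called, not far above the array medians. RefSeq places the start of Ska3 76 bases away on the other strand, and the 2 genes overlap in the annotation. Ska3 was at −0.11 at 6 h and 0.01 at 24 h, with adjusted p 0.443 and 0.948.

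Mrps6, the counterpart of bacterial protein S6, was the sole gene of the 76 called in opposite directions at the 2 times. At 6 h the ethanol arrays read 1946, 2148, 2204 and 2197, and the Dex arrays 1344, 1488, 1817 and 2012. Dex replicate 4 lay above the lowest ethanol array, and the change was −0.37 (SE 0.10, adjusted p 0.0238). At 24 h the ethanol arrays read 1065, 1097, 969, 857 and 939.7, and the Dex arrays 1125, 1089, 1156, 1342 and 1304. The groups overlapped by 1 array, and the change was 0.29 (SE 0.09, adjusted p 0.0318). The 6 h call was lost without ethanol replicate 3 or 4 or Dex replicate 1 or 2 (adjusted p between 0.0606 and 0.101). The 24 h call was lost without ethanol replicate 3, 4 or 5 or Dex replicate 4 or 5 (adjusted p between 0.0599 and 0.0963). With the covariates neither was called (0.0697 and 0.0812). Slc5a3, a myo-inositol transporter gene that overlaps Mrps6 in RefSeq, was at −0.03 (adjusted p 0.870) at 6 h and rose by 0.22 (adjusted p 0.0329) at 24 h. Whether its transcript contributes to the Mrps6 signal was not tested.

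Mrps18b, a relative of bacterial S18 with a place of its own in the small subunit and counted below as particular to mitochondria, rose at 24 h by 0.20 (SE 0.05, adjusted p 0.0105, or 0.0668 with the covariates). Its ethanol arrays read 1571, 1538, 1521, 1548 and 1525, and its Dex arrays 1727, 1795, 1780, 1798 and 1751, with no overlap. Its other 2 probes were at 0.22 and 0.18, with adjusted p 0.0844 and 0.0719 over all probes. Mrpl50 fell at 24 h by 0.19 (SE 0.06, adjusted p 0.0374), with ethanol arrays from 2288 to 2548 and Dex arrays from 1984 to 2169.5, which did not overlap. That call was lost without any 1 of 7 arrays of 24 h (ethanol replicates 1, 2 and 4 and Dex replicates 1, 2, 4 and 5), with adjusted p between 0.0505 and 0.0963. With the covariates 3 genes were called at 24 h, Mrpl47 higher and Mrpl57 and Mrpl52 lower, beside 8.89% of all genes (4.47% higher and 4.42% lower). Again 11 of 76 genes had their arrays apart, 9 higher and 2 lower, beside 16.3% of all genes (8.42% higher and 7.86% lower).

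**Figure D2:**
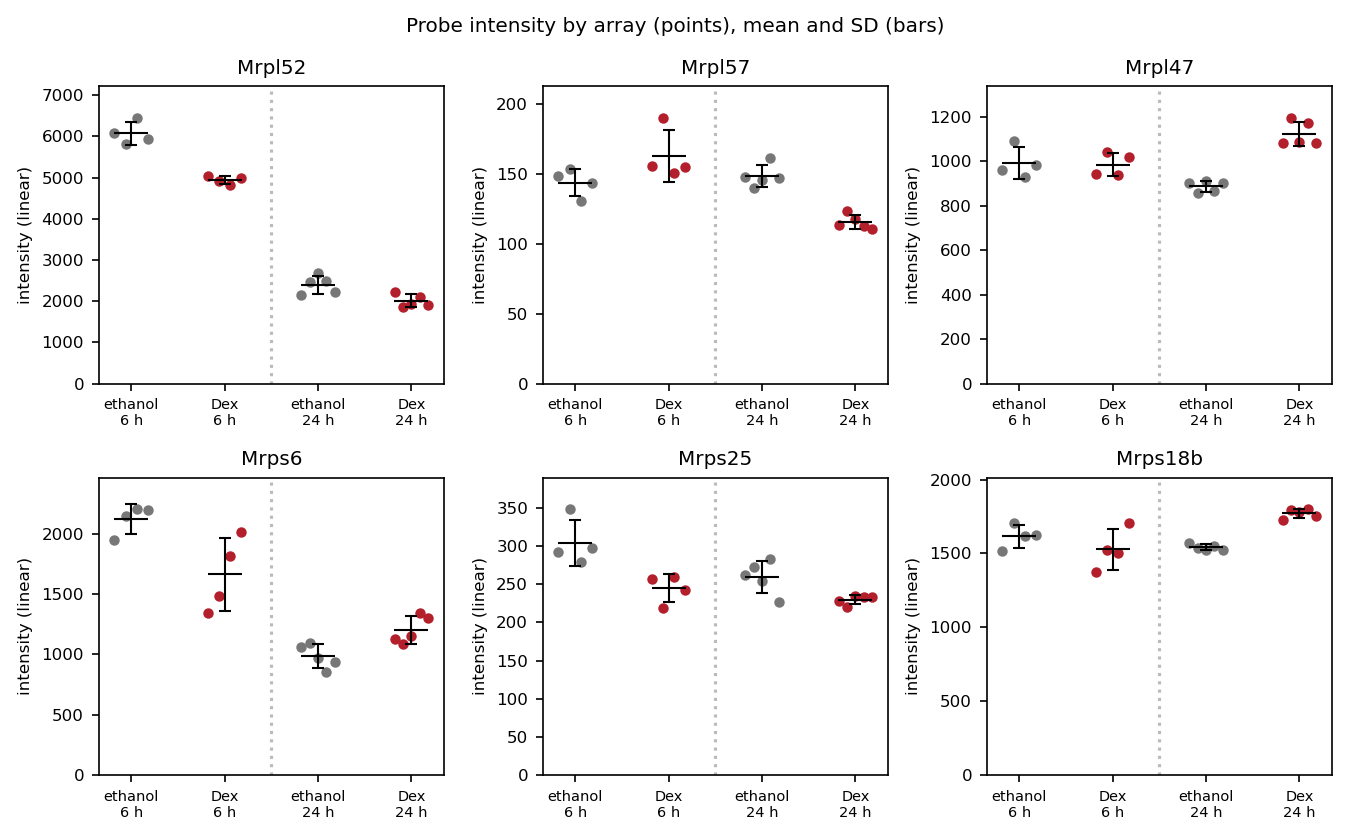
Probe intensity (linear scale from 0) by array for Mrpl52, Mrpl57, Mrpl47, Mrps6, Mrps25 and Mrps18b, with group means and SD as bars; grey is ethanol, red is Dex, and the dotted line parts the 2 times, which seem to have been scaled separately. Dex and ethanol arrays are apart for Mrpl52 and Mrps25 at 6 h and for Mrpl57, Mrpl47 and Mrps18b at 24 h, while those of Mrps6 overlap at both times.

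The Dex effect itself was compared between the times. The difference, 24 h minus 6 h, was called for 4 of 76 genes (5.26%), beside 4.94% of all genes (2.46% higher and 2.48% lower) and 7.9% of those above the median gene. It was 0.66 (SE 0.14, adjusted p 0.00661) for Mrps6, 0.35 (SE 0.08, adjusted p 0.0135) for Mrpl47, 0.28 (SE 0.08, adjusted p 0.0388) for Mrps18b and −0.54 (SE 0.10, adjusted p 0.00221) for Mrpl57. Those of Mrps6 and Mrpl57 passed in each of the 27 alternatives. With the covariates these 2 genes were called, beside 1.22% of all genes (0.598% higher and 0.619% lower). The difference for Mrpl47 was 0.13 (adjusted p 0.182) with the mean of its probes, and its adjusted p was 0.100 with the covariates. The difference for Mrps18b was lost without any 1 of 15 of the 18 arrays, the exceptions being ethanol replicate 1 and Dex replicate 4 of 6 h and Dex replicate 1 of 24 h (adjusted p between 0.0503 and 0.0759). Without Dex replicate 4 of 6 h, 10 genes (13.2%) were called, beside 5.38% of all genes. Next by p, and not called, were Mrpl12 at 0.32 (adjusted p 0.0616), Mrpl18 at 0.33 (0.0648), Mrpl22 at 0.37 (0.0681) and Mrpl16 at 0.34 (0.0758). For Mrpl52, lower at both times, the difference was 0.04 with a 95% interval from −0.15 to 0.23.

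**Figure D3:**
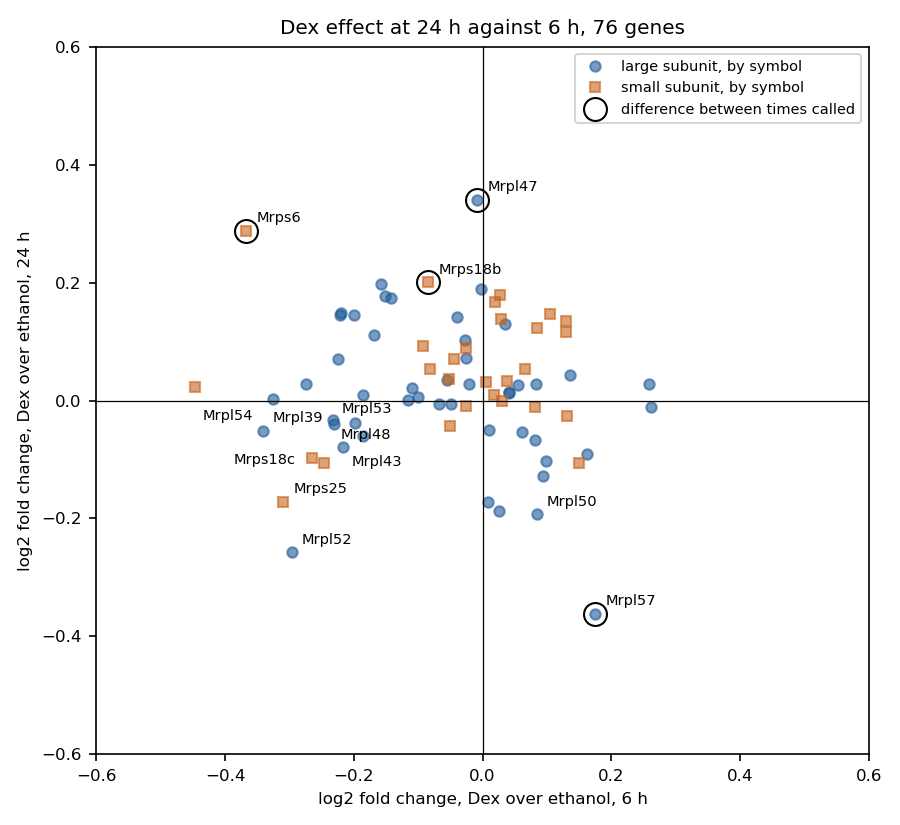
Log2 fold change of Dex over ethanol at 24 h (vertical) against 6 h (horizontal) for the 76 genes; blue circles are large and orange squares small subunit genes, names mark the 13 genes called at either time, and black rings the 4 whose difference between times was called. Mrpl52 is at the lower left, Mrps6 at the upper left and Mrpl57 at the lower right.

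Across the 76 genes the estimated changes at 6 h and 24 h showed little correlation. Of the genes, 14 were below 0 at both times, 19 above 0 at both, 29 below at 6 h and above at 24 h, and 14 the reverse. The Pearson correlation across genes was −0.07 and Spearman's rho −0.07 (n = 76 genes, which are not independent, since all were read on the same arrays). The median SE of a change was 0.0739 at 6 h and 0.0661 at 24 h, and errors of this size lower a correlation. The low value therefore does not show that the responses differed. In all, 13 genes were called at one time or the other and 63 at neither. Of the 9 that were lower at 6 h, Mrpl52 was also lower at 24 h, Mrps6 was higher, and the other 7 were not called.

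Those 63 include proteins at functional centres of the ribosome. Mrps12, the counterpart of bacterial S12 in the decoding site, was at 0.07 (adjusted p 0.695) at 6 h and 0.05 (0.674) at 24 h. Mrpl11, at the base of the stalk that binds translation factors, was at −0.19 (0.218) and −0.06 (0.659). Mrpl12, which forms that stalk, was at −0.14 (SE 0.07, adjusted p 0.261) at 6 h and 0.17 (SE 0.07, adjusted p 0.0697) at 24 h, close to the threshold. Mrpl44, which has a ribonuclease III fold, was at −0.05 (adjusted p 0.731) and −0.01 (0.958). Among small subunit proteins, Mrps22 was at 0.02 and 0.01, Mrps34 at 0.08 and 0.12, and Mrps16, the counterpart of bacterial S16, at −0.25 (SE 0.10, adjusted p 0.139) and −0.11 (0.473). A p above the threshold does not show that these levels were equal.

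The 3 relatives of bacterial S18 gave different calls. Mrps18c was called lower at 6 h, Mrps18b was called higher at 24 h, and Mrps18a was at −0.08 (adjusted p 0.592) and 0.05 (0.656). Differences between these 3 genes were not tested. Structures of the mammalian ribosome place the Mrps18a and Mrps30 proteins in the large subunit despite their names. Counting both there left the large subunit medians at −0.04 and 0.01. The small subunit median stayed at 0.01 at 6 h and went from 0.044 to 0.035 at 24 h. The balance on each array given below keeps the split by name.

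The genes were also grouped by origin. Of the 31 genes taken as particular to mitochondria, 7 (22.6%) were called lower at 6 h. Of the 45 with a bacterial counterpart, 2 (4.44%) were, beside 4.39% of all genes and 7.39% of those above the median gene. In the large subunit these numbers were 6 of 18 and 0 of 30. The median log2 fold change was −0.03 in both classes. At 24 h, 1 rose and 3 fell among the 31, and 2 rose and 0 fell among the 45. Of all genes, 8.39% rose and 8.1% fell at that time. No test was made of these counts, which rest on the same 9 and 6 calls as above. With the covariates the calls at 6 h were 2 of 31 and 0 of 45, beside 1.98% of all genes called lower. At 24 h they were then 2 of 31, both lower, and 1 of 45, higher. Of all genes, 4.47% were then higher and 4.42% lower at 24 h.

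The balance of large over small subunit messages was followed on each array as the difference between the median log2 levels of the 48 and the 28 genes, each relative to its mean at that time. At 6 h it ran from −0.0106 to 0.033 in the ethanol arrays and from −0.051 to −0.0112 in the Dex arrays. At 24 h it ran from 0.013 to 0.051 with ethanol and from −0.043 to 0.010 with Dex. The highest Dex array lay just below the lowest ethanol array at each time, so the groups nearly touched. The group medians were 0.015 and −0.035 at 6 h, and 0.016 and −0.019 at 24 h. The difference between the median fold changes of the subunits was −0.06 at 6 h and −0.03 at 24 h, and leaving out 1 array at a time moved the 6 h value between −0.08 (without Dex replicate 1 of 6 h) and −0.03 (without ethanol replicate 1 of 6 h). The 24 h value moved between −0.05 (without Dex replicate 5 of 24 h) and −0.02 (without ethanol replicate 5 of 24 h). The genes and the split were chosen with results of these data known, so no p is given. The medians of the subunits themselves overlapped between groups at both times.

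**Figure D4:**
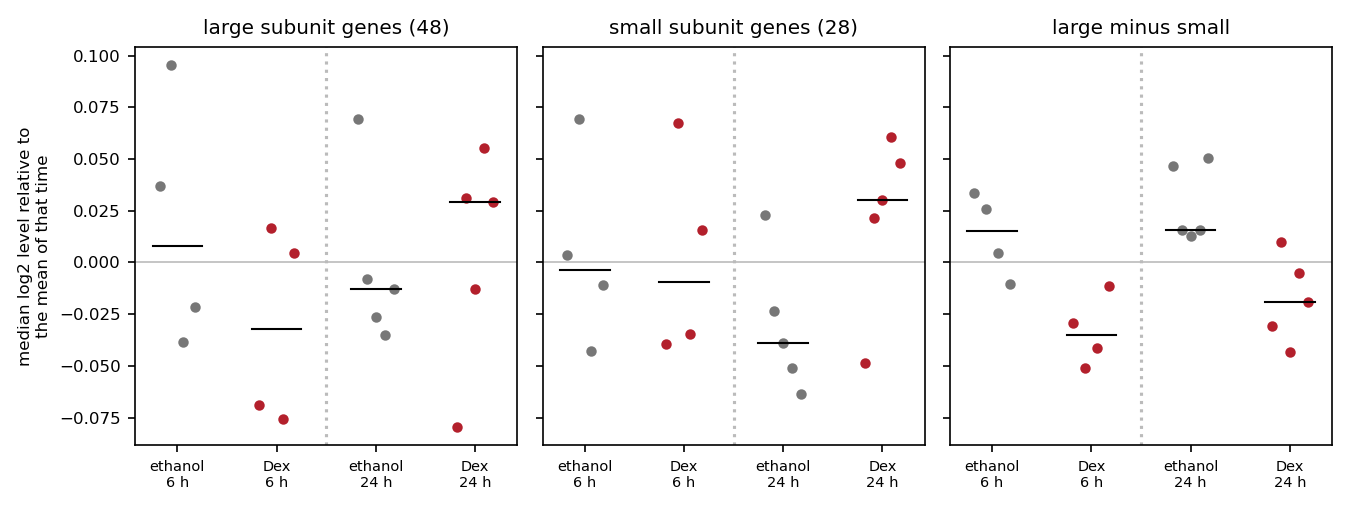
Median log2 level of the 48 large subunit genes (left), the 28 small subunit genes (middle) and their difference (right) on each array, relative to each gene's mean at that time; grey is ethanol, red is Dex, bars are group medians, and the dotted line parts the times. In the left and middle panels the groups overlap, and in the right panel the Dex arrays run from −0.051 to −0.0112 at 6 h and from −0.043 to 0.010 at 24 h, with the highest just below the lowest ethanol array.

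For genes with several probes the probes were set side by side, in a fit over all probes. The 76 genes have 132 probes, and 33 genes have more than 1. Several probes were present for 3 of the genes called at 6 h and for 2 of those called at 24 h, and in none of these were all probes called. In Mrpl3, a core protein of the large subunit, the probes disagreed. At 24 h the brightest was at 0.10 (adjusted p 0.239), a dimmer one fell by 0.26 (adjusted p 0.00580), and the dimmest, made from a different transcript record, rose by 0.30 (adjusted p 0.00197). That probe's mean log2 level of 6.51 was below that of the median gene (6.68). In Mrps31 the brightest probe was at 0.15 (adjusted p 0.0973) at 24 h while 2 others rose by 0.22 and 0.21. In Mrps15 the dimmer probe fell by 0.30 (adjusted p 0.0149) at 6 h. In Mrpl13 a dimmer probe fell by 0.29 (adjusted p 0.00504) at 6 h while the brightest was at 0.16. Mrps31, Mrps15 and Mrpl13 were picked for this after their probe values were seen.

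Some proteins of the mitochondrial ribosome carry other names. Of 4 measured, Chchd1 rose at 24 h by 0.20 (SE 0.05, adjusted p 0.0147, or 0.0793 with the covariates), and Dap3, Ptcd3 and Gadd45gip1 were not called at either time. Dap3, a GTP-binding protein of the small subunit, was at 0.15 and 0.08, and Ptcd3 at −0.15 and 0.10. All 4 were above 0 at 24 h, with a median of 0.09. Among 16 mitochondrial translation factors, Pdf, the enzyme that removes the formyl group from the first residue of new chains, fell at 6 h by 0.36 (SE 0.09, adjusted p 0.00811). At 24 h Taco1, an activator of the translation of cytochrome oxidase subunit I, fell by 0.37 (SE 0.07, adjusted p 0.000299). Both were also called with the covariates (adjusted p 0.0350 and 0.00295). Each was the sole call among the 16 at its time (6.25%), beside 9.06% of all genes at 6 h and 16.5% at 24 h.

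Among genes that charge the tRNAs and build the ribosome, few were called at 6 h, all of them higher. They were 12.5% of the synthetases and 14.3% of the assembly genes, beside 4.67% of all genes called higher and 8.04% of those above the median gene. At 24 h, 8.39% of all genes were higher and 8.1% lower. Of 16 mitochondrial tRNA synthetases, 2 rose at 6 h, Mars2 by 0.30 (SE 0.07, adjusted p 0.0114) and Vars2 by 0.24 (SE 0.07, adjusted p 0.0357). At 24 h, 2 rose and 2 fell, with Iars2 up by 0.17 and Yars2 down by 0.31. With the covariates 0 synthetases were called at 6 h (adjusted p 0.0558 for Mars2 and 0.132 for Vars2) and 1 at 24 h, Yars2. Of 21 genes of ribosome assembly and rRNA modification, 3 rose and 0 fell at 6 h. They were Mrm3, a methyltransferase of the large rRNA, by 0.31 (SE 0.06, adjusted p 0.00201), Rbfa, an assembly factor of the small subunit, by 0.34, and Afg3l2, a subunit of the protease that matures Mrpl32, by 0.28. At 24 h, 2 of the 21 rose, Afg3l2 by 0.26 and Mrm3 by 0.17, and 2 fell, Dhx30 by 0.19 and Tfb1m by 0.32. With the covariates Mrm3 was called at 6 h, and 0 of the 21 at 24 h (adjusted p from 0.0548 for Afg3l2 to 0.154 for Mrm3). The 24 h call of Mrm3 was lost in 11 of 28 alternatives. Mrpl32 itself was at 0.04 and 0.01, and among the dimmest genes.

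Among 15 regulators of mitochondrial transcription and biogenesis, 1 (6.67%) rose at 6 h and 4 (26.7%) rose at 24 h, while 0 fell. Of all genes, 4.67% rose and 4.39% fell at 6 h, and 8.39% rose and 8.1% fell at 24 h. At 24 h Ppargc1b rose by 0.52 (SE 0.10, adjusted p 0.000481), Esrra by 0.35 (SE 0.06, adjusted p 0.000191), Ppargc1a by 0.33 and Pprc1 by 0.25. With the covariates the first 3 of these were called, and 0 regulators at 6 h, beside 4.47% and 2.48% of all genes called higher. These are the coactivators of the PGC-1 family and a nuclear receptor that works with them. Nrf1 was at 0.00 and Gabpa at 0.06 at 24 h, and neither was called. Of the 76 mitoribosomal genes, 3 rose and 3 fell at 24 h, and the median over all 76 was 0.02. Whether these regulators act on the mitoribosomal genes was not tested.

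The cytosolic ribosome and the respiratory chain were measured on the same arrays. Of 59 cytosolic ribosomal protein genes, 1 rose and 4 fell at 6 h, and 11 rose and 2 fell at 24 h, with medians of −0.04 and 0.10. Of 77 genes of the respiratory chain and ATP synthase, 0 rose and 11 fell at 6 h, and 8 rose and 2 fell at 24 h, with medians of −0.05 and 0.07. The calls were 8.47% and 22% of the cytosolic list and 14.3% and 13% of the respiratory list. Of all genes, 4.67% rose and 4.39% fell at 6 h, and 8.39% rose and 8.1% fell at 24 h. The medians of the 76 mitoribosomal genes were −0.03 and 0.02. The difference between times was called for 11 of the 77 respiratory genes, all toward 24 h, and for 3 up and 1 down of the 76. It was called for 4.94% of all genes, 2.46% higher and 2.48% lower. With the covariates 0 cytosolic genes rose and 1 fell at 6 h, and 2 rose and 1 fell at 24 h. The respiratory calls were then 0 higher and 7 lower at 6 h, 4 higher and 1 lower at 24 h, and 6 for the difference between times. Of all genes, 2.48% were then higher and 1.98% lower at 6 h, and 4.47% higher and 4.42% lower at 24 h. The difference was then called for 1.22% of all genes. The lists were not tested against each other.

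**Figure D5:**
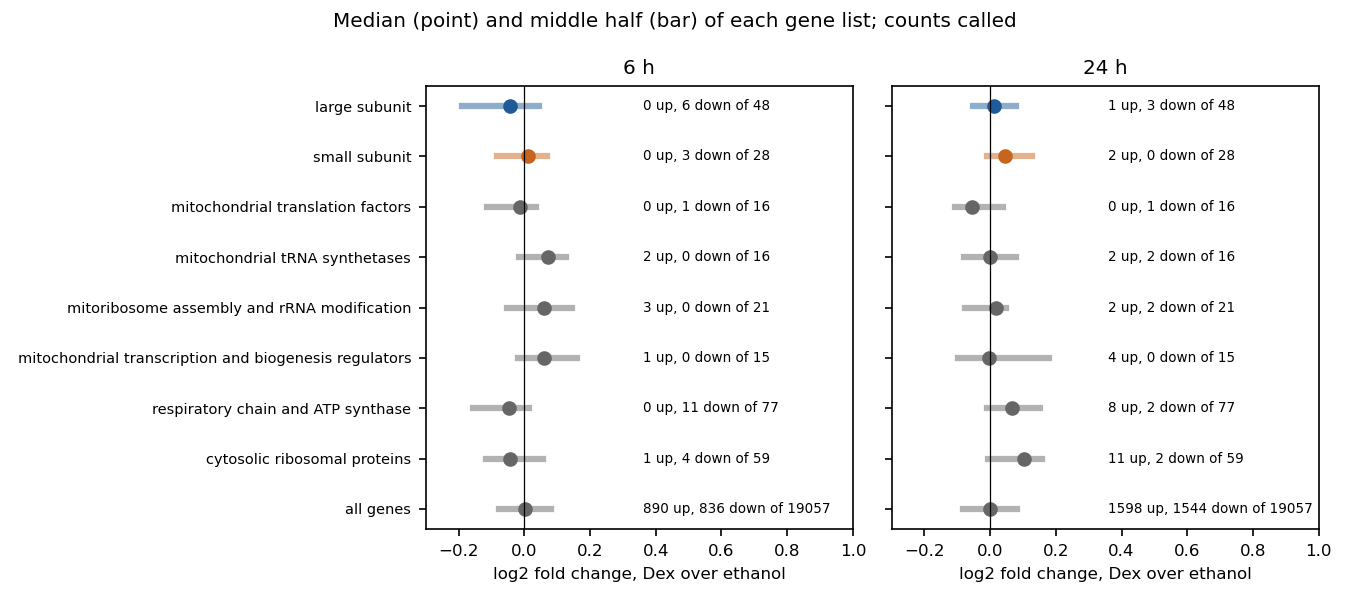
Median log2 fold change (point) and the range of the middle 50% of genes (bar) for each list at 6 h (left) and 24 h (right), with the number of genes called higher and lower. The subunit medians lie between −0.04 and 0.04. The cytosolic ribosomal proteins at 24 h are at 0.10 with 11 of 59 called higher (2 with the covariates), beside 8.39% of all genes (4.47% with the covariates).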

How the data were processed

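RNA from C2C12 myotubes was read on 18 Illumina mouse bead arrays. The deposited values are linear probe intensities that the authors made with lumi, per the submitters' processing notes; its version, background step and normalization were not given in these sources. Intensities were turned into log2 values (pseudocount 0), where the design had assumed log2 values. Of 45281 probes, 34885 had 1 gene symbol, 18 several and 10378 none. Symbols were updated through gene identifiers to RefSeq (GRCm38.p6) for 34807 probes and kept for 78. The brightest probe by mean log2 value stood for each of 19057 genes. Groups were taken from sample titles. With limma 3.58.1 (R 4.3.3), lmFit and eBayes were run on 4 group means. Each comparison was adjusted by Benjamini-Hochberg over its 19057 genes, and adjusted p-values under 0.05 were calls. The fit was also run on simulated data whose arrays were independent. The deposited arrays may not be, so that run cannot show that the error rates hold here. The number of arrays limits the precision.

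The members and lists were chosen with earlier results of these data known. Members were named where called (up to 8 a direction, or the 8 smallest p where fewer were called), brightest or dimmest, called at both times, with probes called in opposite directions, or from a preset list, with up to 2 called genes of each other list. Other genes are named as examples, chosen after their values were seen. The labels state no pairing, and the numbers were not taken as pairs in the main fit. Correlations of the deviations of same-numbered arrays ran from −0.0797 to 0.256 at 6 h and from −0.928 to −0.19 at 24 h. At 24 h same-numbered Dex and ethanol arrays thus deviated in opposite directions, strongly so for some numbers. These arrays may therefore not be independent, and the p-values at 24 h carry that limit. Alternatives were a pseudocount of 50, the mean of probes, a filter on dim genes, 2 other scalings, each time alone, array weights, a replicate block, the missing directions (under 0.001% of the spread of genes with mean log2 above 12) as covariates, and arrays left out. Promoters are from RefSeq.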

Additional observations from a re-analysis of the deposited data

Results flagged for a closer look

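In 7 of 132 groups of arrays (33 named genes in 4 groups each), 1 array stood apart by Dixon's ratio of its gap to the range of the group, and chance gives about 1 in 20. Mrpl3 in ethanol replicate 4 at 6 h read 1884 where the others read 2148 to 2166 (ratio 0.938). Mrpl18 in Dex replicate 1 at 6 h read 718 against 851 to 869 (0.887). Mrpl35 in Dex replicate 3 at 6 h read 71.1 against 82 to 83.7 (0.874), and in Dex replicate 4 at 24 h it read 82.7 against 67.8 to 71.3 (0.747). Mrpl35 is one of the 5 genes below the median gene. Mrpl57 in Dex replicate 2 at 6 h read 190.2 against 150.5 to 156 (0.855), and Mrps27 in ethanol replicate 4 at 6 h read 307 against 254 to 261 (0.855). Mrpl48 in Dex replicate 4 at 24 h read 879 against 776 to 800.2 (0.753).

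The Dex effect differed between 24 h and 6 h, by the test of the difference itself, for 4 genes. These were 5.26% of the 76, beside 4.94% of all genes. The differences were 0.656 for Mrps6, 0.349 for Mrpl47, 0.285 for Mrps18b and −0.536 for Mrpl57 on the log2 scale. That of Mrpl47 was 0.129 (adjusted p 0.182) with the mean of its probes, and its adjusted p was 0.0539 with the replicate block and 0.100 with the covariates. The call of Mrps18b was lost without any 1 of 15 arrays. Its adjusted p was 0.153 with the mean of its probes, 0.117 with the replicate block and 0.192 with the covariates.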

How the results depend on the processing

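No called value changed sign in any alternative. At 6 h, 9 genes were called, beside 9.06% of all genes. The count was 2 when each time was fitted alone (4.76% of all genes) and 5 with array weights (5.66%). It was 2 with the missing directions as covariates (4.46%). With 1 array left out it was 3 to 12, beside 6.5% to 9.59% of all genes. At 24 h, 6 were called, beside 16.5% of all genes. The count was 15 (10 higher) when each time was fitted alone (22% of all genes). It was 17 (10 higher) with array weights (29.1%) and 3 with the covariates (8.89%). With 1 array left out it was 4 to 7, beside 12.4% to 17.4% of all genes. The difference between times gave 4 calls, beside 4.94% of all genes, and 2 with the covariates (1.22%). With 1 array left out it gave 3 to 10, beside 3.32% to 5.42% of all genes. With the replicate block it gave 2 calls, beside 2.79% of all genes. The replicate numbers share no stated pairing. The difference of subunit medians at 6 h was −0.056, or −0.036 with the mean of each gene's probes and −0.082 to −0.034 with 1 array left out. The small subunit median at 24 h was 0.044, or 0.087 without both arrays numbered 1. The cause of these shifts was not tested, except that the covariates leave fewer degrees of freedom. Signal close to background limits what can be seen for the 5 genes below the median gene.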
